A study of Bos taurus with 14 samples.

Results

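The genes described here are the mitochondrially encoded subunits of respiratory chain complexes III, IV and V in the livers of newborn heifer calves. The names sought were CYTB, COX1, COX2, COX3, ATP6 and ATP8, and 5 of the 6 were paired with an identifier, out of 27607 genes counted. These were CYTB (ENSBTAG00000043550), COX1 (ENSBTAG00000043561), COX2 (ENSBTAG00000043556), COX3 (ENSBTAG00000043560) and ATP8 (ENSBTAG00000043564). ATP6 had no paired identifier and was not analysed here. The members were thus chosen by their measured fold change and p-value between VTM and CON, since the pairing came from the table of genes that the study listed as differential between these same calves, and every difference between the 2 groups in these genes is given as a description, with no test. Livers were sampled 30 h after birth from calves of crossbred Angus-based heifers, all inseminated with semen from a single bull. Dams of the CON calves (n = 7) ate a basal diet. Dams of the VTM calves (n = 7) ate the same diet with a vitamin and mineral premix from before breeding until calving. Calves of both groups were parted from their dams before suckling and were tube-fed colostrum replacer and then milk replacer, so the diets differed before birth only. The study left out VTM 10 and CON 19 for low alignment, and the 12 remaining calves (6 per group) carry the comparisons, with the left-out calves given beside them.

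Mitochondria keep a small circular genome of their own, which encodes a few core subunits of the oxidative phosphorylation complexes and the tRNAs and rRNAs to translate them. Both strands are transcribed as long polycistronic RNAs, which are cut into separate transcripts, mostly where tRNAs lie between the genes, and then polyadenylated. CYTB, COX1, COX2, COX3 and ATP8 all lie on the same strand. Cytochrome b is the only subunit of complex III made in the mitochondrion, COX1 to COX3 form the catalytic core of cytochrome c oxidase (complex IV), and ATP8 is a small membrane subunit of ATP synthase (complex V). Apart from ATP6, all other subunits of these 3 complexes are nuclear-encoded and imported. Hepatocytes are rich in mitochondria, and transcripts of this genome are usually among the most abundant polyadenylated RNAs of liver.

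Each library held between 13382264 and 20125409 counts, and each calf was 1 replicate. Between 16168 and 16666 genes had at least 1 count in 10 of the libraries, against 12212 in VTM 40, 14210 in CON 31, 14528 in CON 19 and 15110 in CON 25. Only 2 of 8 hepatocyte markers, TTR and AHSG, were paired with an identifier. Their summed level was 7460 to 16013 counts scaled to library size (CPM) in VTM and 4717 to 12789 CPM in CON calves. Marker ranges here cover the 12 calves of the comparison. Paired markers of stellate cells (3 of 5) summed to 432 to 921 CPM in VTM and 493 to 2143 CPM in CON calves. Most of that sum was COL1A1 and DCN, and the third marker, LRAT, went the other way. LRAT was at 12.3 (VTM 28) to 19.6 CPM (VTM 34) in VTM and 5.08 (CON 31) to 11.5 CPM (CON 13) in CON calves. The left-out CON 19 had 17.0 CPM of LRAT, inside the VTM range, and the left-out VTM 10 had 17.2 CPM. Paired markers of bile duct (3 of 4) summed to 26.6 to 70.4 CPM in VTM and 37.3 to 112 CPM in CON calves, with SOX9 at 0 in VTM 40. No erythroid, immune or endothelial marker was paired, and the paired ones came from the study's own list of differential genes, except SOX9, which came from its list of regulatory factors. AHSG, a secreted hepatocyte glycoprotein, had its lowest levels in CON 31 (3162 CPM) and CON 25 (3659 CPM), the calves with the highest mitochondrial shares. TTR, a secreted thyroid hormone carrier, had its highest levels in those calves, at 1554 and 1302 CPM. The part of cell composition or of the number of detected genes in the results below was not tested, and in whole liver, more mitochondria-rich cells and more mitochondrial RNA per cell cannot be told apart.

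The 5 genes together took between 1.51% and 15.1% of all counts in a library. In VTM calves the lowest share was 1.51% (VTM 4), the median 2.01% and the highest 3.25% (VTM 16). In CON calves the lowest was 1.73% (CON 37), the median 2.55% and the highest 15.1% (CON 31). The groups overlapped: 4 of 6 CON calves lay within the range of the VTM calves, and only CON 25 (7.0%) and CON 31 lay above it. CON 31 was 7.11 times, and CON 25 was 3.29 times, the median of the other 13 calves (2.12% in each case). The left-out calves lay inside the VTM range, with VTM 10 at 2.58% and CON 19 at 3.15%.

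**Figure D1:**
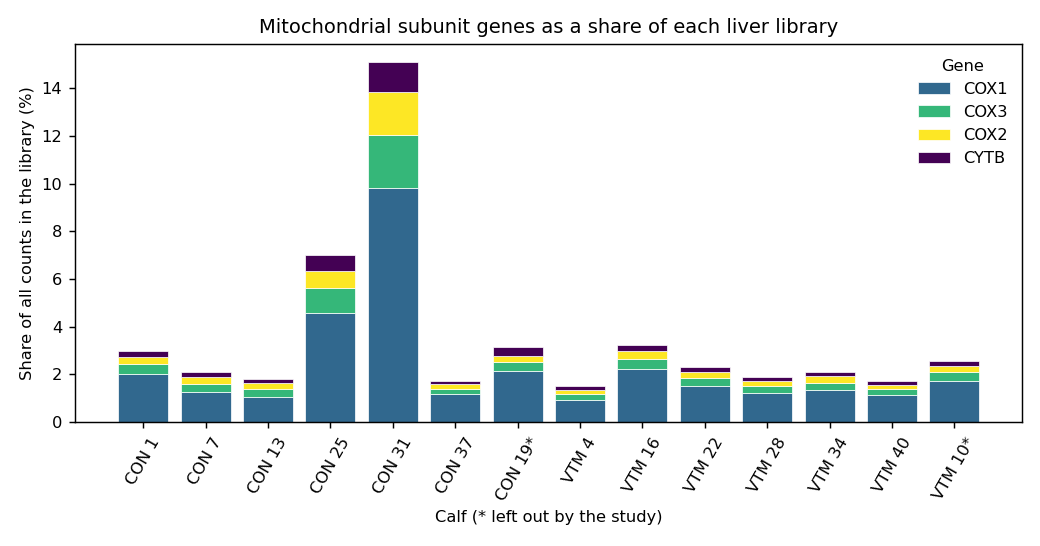
Stacked bars show the percent of each library's counts on COX1, COX3, COX2 and CYTB in the 14 calves, by maternal diet, with asterisks at the calves left out by the study. CON 31 (15.1%) and CON 25 (7.0%) stand above the other 12 bars, which lie between 1.51% and 3.25%, and ATP8, at most 0.000778% of a library, is not drawn.

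The mean share was 2.14% ± 0.616 (SD, n = 6) in VTM and 5.13% ± 5.27 (SD, n = 6) in CON calves, a ratio of CON to VTM of 2.40. The ratio of the medians was 1.27. The difference of 2.99 percentage points was smaller than the spread among CON calves, and without CON 31 it was 0.99 points. Over all 14 calves the means were 2.20% and 4.84%.

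Complex III was represented by CYTB, which carries electrons from ubiquinol towards cytochrome c. Its share was 0.155% (VTM 40) to 0.282% (VTM 16) in VTM calves, with a median of 0.186%. In CON calves it was 0.146% (CON 37) to 1.24% (CON 31), with a median of 0.246%. CON 37 lay below every VTM calf, 3 of 6 CON calves lay within the VTM range, and CON 25 (0.664%) and CON 31 lay above it. The left-out CON 19 (0.383%) also lay above every VTM calf, and VTM 10 had 0.238%. The means were 0.201% ± 0.0478 in VTM and 0.457% ± 0.428 in CON calves (SD, n = 6 each).

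Complex IV contributed 3 genes. COX1, which holds the haem and copper centre where oxygen is reduced, had the most counts of the 5 genes in every library. Its share was 0.947% (VTM 4) to 2.22% (VTM 16) with a median of 1.29% in VTM calves. In CON calves it was 1.07% (CON 13) to 9.83% (CON 31) with a median of 1.64%. CON 25 had 4.59%, and the other CON calves lay among the VTM calves. By counts, COX1 ranked 1st of all genes in CON 31 and 3rd in CON 25, and between 4th and 12th in the other calves.

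COX2, which takes electrons from cytochrome c through its own copper centre, had a share of 0.172% (VTM 4) to 0.317% (VTM 16) in VTM calves, with a median of 0.227%. In CON calves it was 0.181% (CON 37) to 1.80% (CON 31), with a median of 0.281%, and CON 25 had 0.718%. COX3, a core subunit that holds no redox centre, spanned 0.222% (VTM 4) to 0.429% (VTM 16) in VTM calves, with a median of 0.292%, and 0.241% (CON 37) to 2.23% (CON 31) in CON calves, with a median of 0.383% and 1.03% in CON 25. For both genes the 4 other CON calves lay within the VTM range. The means of COX2 were 0.235% ± 0.0542 and 0.582% ± 0.627, and those of COX3 0.303% ± 0.0757 and 0.764% ± 0.771, in VTM and CON calves (SD, n = 6 each).

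**Figure D2:**
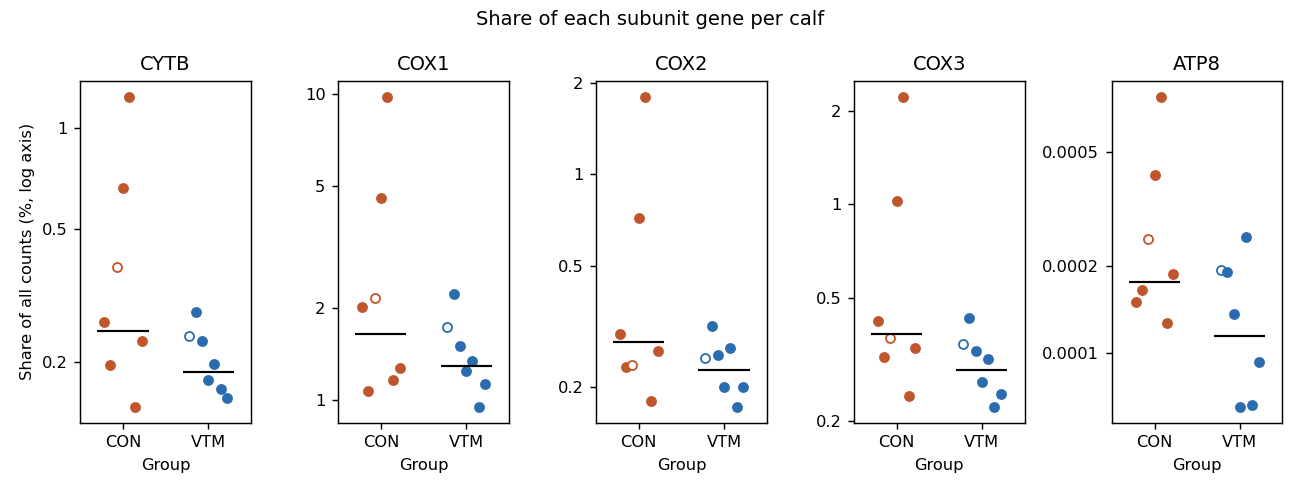
Each point is the share of 1 gene in the counts of 1 calf, in percent on a log axis, in VTM and CON calves, with the median of the 6 calves per group as a black line and the left-out calves as open circles. In each panel CON 31 is the highest point and CON 25 the next, and the remaining CON calves lie at or near the levels of the VTM calves.

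Complex V was represented by ATP8 alone, and its depth was of another order. It had 12 (VTM 4) to 45 (VTM 34) counts in VTM calves and 23 (CON 1 and CON 37) to 138 (CON 31) in CON calves. The exact 95% Poisson interval was 6.20 to 21.0 counts for VTM 4 and 116 to 163 counts for CON 31, and covers counting error only. As CPM the lowest, median and highest were 0.646, 1.15 and 2.52 in VTM and 1.27, 1.76 and 7.78 in CON calves, with CON 25 at 4.14. Again CON 31 and CON 25 lay above every VTM calf, and the other CON calves lay within the VTM range. In the RefSeq annotation of assembly ARS-UCD2.0, ATP8 overlaps ATP6 on the same strand. A counter that takes a read only when it overlaps 1 gene leaves out the reads in such an overlap, and the part of this in the low ATP8 counts was not tested.

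In edgeR's fit over 13307 genes, relative to TMM-scaled library sizes, the log2 fold change of VTM against CON was -1.49 (SE 0.57) for CYTB. For complex IV it was -1.57 (SE 0.62) for COX1, -1.64 (SE 0.61) for COX2 and -1.65 (SE 0.59) for COX3. For ATP8 it was -1.45 (SE 0.63). All 5 genes passed the study's threshold of an unadjusted p of 0.05 and an absolute log2 fold change of 0.5, against 2.85% of the tested genes called lower in VTM calves, and nothing can be read from this count, since the same contrast chose the genes. Without CON 31 the log2 fold changes were -0.65 for CYTB, -0.61 for COX1, -0.59 for COX2, -0.71 for COX3 and -0.68 for ATP8, and 0 of 5 passed, against 1.5% of the tested genes. Without CON 25 and without VTM 4, VTM 22, VTM 28 or VTM 40 in turn, 4 of 5 passed and ATP8 did not. Genes called lower in VTM calves then numbered 229 of 13453 without CON 25 and 258 of 13445 without VTM 4. They numbered 366 of 13445 without VTM 22, 315 of 13443 without VTM 28 and 443 of 13502 without VTM 40. Over all 14 calves the values lay between -1.47 (COX3) and -1.27 (ATP8), and 5 of 5 passed, against 1.62% of the tested genes.

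By DESeq2, the tool of the study, COX1 lay just inside that threshold, with a log2 fold change of -1.59 (SE 0.78). A gene with no paired name, ENSBTAG00000043584, lay just outside it with -1.50 (SE 0.78). In edgeR's fit that gene passed, with -1.48 (SE 0.59), and without CON 31 it did not (-0.47, SE 0.37). TMM gave CON 31 a factor of 0.703 and CON 25 a factor of 0.845, against 0.980 to 1.15 in the other 10 calves of the comparison, which raised the scaled levels of all genes in these libraries. On that scale the summed share was 21.5% in CON 31 and 8.28% in CON 25.

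The counts were next compared between complexes within each calf, where library size and scaling cancel. Counts per gene were not divided by gene length, so a ratio gives no relative number of transcripts, but it can be compared between calves. Complex IV took 90.5% ± 0.83 of the summed counts in VTM and 90.6% ± 1.16 in CON calves (SD, n = 6 each). CYTB took 9.52% ± 0.83 and 9.43% ± 1.16. These proportions lay close together in calves whose summed share spanned 10-fold.

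COX1 had 6.88 ± 0.73 counts per CYTB count in VTM and 6.91 ± 1.15 in CON calves (SD, n = 6 each). The log2 ratio differed between the groups by 0.0053, against a pooled SD of 0.21. It was lowest in CON 13 (2.46) and highest in CON 37 (3.0), both of them calves with a low summed share. CON 31, at 2.98, and the other calves lay between them.

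Within complex IV, COX2 had 0.172 ± 0.0194 and COX3 0.220 ± 0.0158 counts per COX1 count in VTM calves (SD, n = 6 each). In CON calves the ratios were 0.178 ± 0.0292 and 0.240 ± 0.0381 (SD, n = 6 each). The differences in log2 ratio, VTM minus CON, were -0.041 for COX2 to COX1 (pooled SD 0.20) and -0.115 for COX3 to COX1 (pooled SD 0.17), each within the spread among calves. CON 13 had the highest value of both ratios, -2.20 for COX2 and -1.73 for COX3 on the log2 scale.

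The ratio of COX3 to COX2 varied least across the 12 calves, with an SD of 0.084 on the log2 scale and a 1.21-fold range from lowest to highest. Its mean was 1.28 ± 0.0691 in VTM and 1.35 ± 0.0713 in CON calves, a log2 difference of -0.074 against a pooled SD of 0.078. CON 25 had the highest log2 ratio of the 12 calves (0.52) and CON 31 the lowest among CON calves (0.31), so the 2 high-share calves lay at opposite ends of their group. The SD across calves was 0.20 for COX1 to CYTB, 0.19 for COX2 to COX1 and 0.17 for COX3 to COX1. The corresponding fold ranges were 1.45, 1.52 and 1.56, while the counting error of these ratios was at most 0.011 on the log2 scale.

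The log2 ratio of ATP8 to COX1 was -13.49 ± 0.62 in VTM and -13.22 ± 0.45 in CON calves (SD, n = 6 each), a difference of -0.268 against a pooled SD of 0.54. Its SD across the 12 calves was 0.53, and the root mean square of the counting error was 0.29 (SDs do not add, so this is no share of it). VTM 28 was lowest (-14.23), VTM 34 was highest (-12.38), and CON 31 (-13.62) lay between. The counting error was larger for this ratio than for those above, and whether the groups differed in it was not tested.

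**Figure D3:**
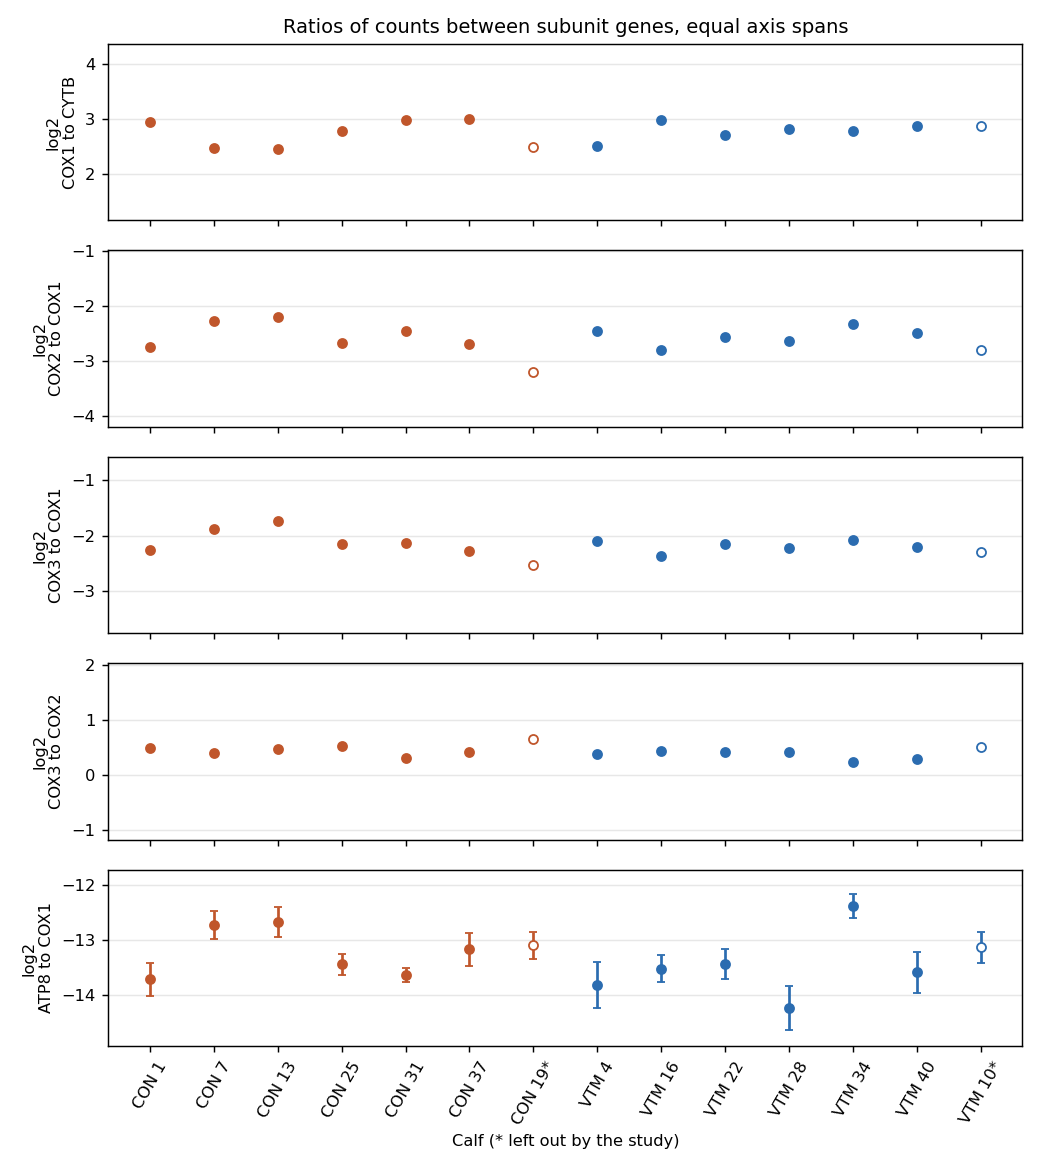
Each panel gives the log2 ratio of counts between a pair of genes for each calf, CON calves on the left and VTM calves on the right, on axes of equal span, with error bars of 1 counting SE (hidden by the points except for ATP8) and open circles for left-out calves. The groups overlap in every panel, the points of ATP8 to COX1 are the most scattered (-14.23 to -12.38), and CON 19 is the lowest point for COX2 to COX1 (-3.19).

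CON 19, which the study had left out, lay outside the range of the other 13 calves in the ratios among COX1, COX2 and COX3, and inside it for COX1 to CYTB (2.49) and ATP8 to COX1 (-13.09). For complex IV to CYTB, CON 19 also lay below the other 13 calves, at 2.85 against 3.02 to 3.48 on the log2 scale. Its log2 ratio of COX2 to COX1 was -3.19, against -2.81 to -2.20 in the other 13 calves. For COX3 to COX1 it was -2.54, and for COX3 to COX2 it was 0.65, the lowest and highest of the 14 calves. COX1 took 68.6% of its summed counts, the highest proportion of any calf. VTM 10, the other left-out calf, had a COX2 share of 0.250% and a COX3 share of 0.354%, both within the range of the VTM calves.

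The complex I subunits of the same genome served as a reference outside the 3 complexes, although their names came from the same list of differential genes. Complex I passes electrons from NADH to ubiquinone. The 6 subunits on the strand of CYTB and COX1 (ND1, ND2, ND3, ND4, ND4L and ND5) summed to 0.447% ± 0.0848 of counts in VTM and 1.07% ± 1.04 in CON calves (SD, n = 6 each). CON 31 had 2.98% and CON 25 had 1.56%, which were 6.61 and 3.45 times the median of the other 13 calves. For complex IV the corresponding values were 7.19 and 3.29 times.

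Complex IV had 4.28 ± 0.475 counts per complex I count in VTM and 4.25 ± 0.509 in CON calves (SD, n = 6 each). The difference in log2 ratio was 0.0085, against a pooled SD of 0.17. CYTB had 0.448 ± 0.0383 and 0.438 ± 0.0198 counts per complex I count, a log2 difference of 0.029 against a pooled SD of 0.097. CON 31 lay within the range of the other calves in both ratios, at 2.22 and -1.26 on the log2 scale. It was the highest of the 14 calves in the ratio of complex IV to CYTB, at 3.48.

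ND6 is the one complex I subunit encoded on the opposite strand, and its proportion to CYTB varied more. The log2 ratio of ND6 to CYTB had an SD of 0.55 across the 12 calves, against 0.094 for CYTB to complex I. CON 31 was the lowest of all calves at -6.52, and the next lowest was VTM 16 at -6.03. The groups differed by 0.11, against a pooled SD of 0.58. ND6 had 2405 counts in CON 31, 3326 in CON 25 and 5626 in CON 19.

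In CON 19 the proportions to complex I also differed. The log2 ratio of complex IV to complex I was 1.3, against 1.82 to 2.28 in the other 13 calves, and that of CYTB to complex I was -1.55, against -1.33 to -0.96. Its ratio of ND6 to CYTB was -3.22, against -6.52 to -4.73. Which strand column of the aligner was deposited is not given in the sources used here, and the part of antisense reads in the proportions of CON 19 was not tested.

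**Figure D4:**
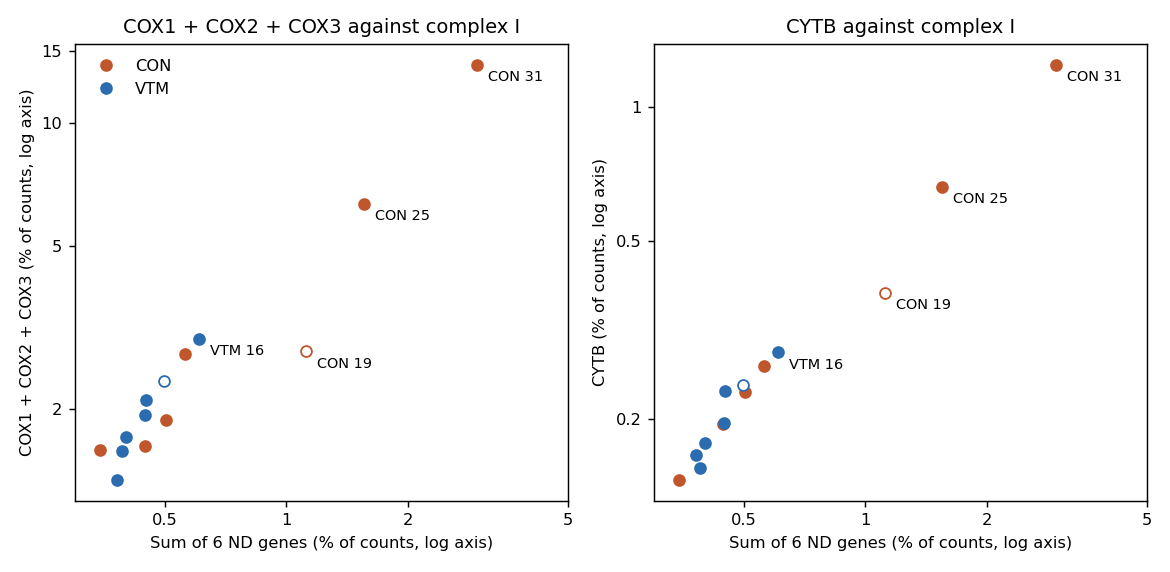
The summed share of COX1, COX2 and COX3 (left) and the share of CYTB (right) are plotted against the summed share of the 6 complex I genes in each calf, all in percent of counts on log axes, with CON and VTM calves in separate colours and left-out calves as open circles. CON 31 and CON 25 lie at the top right in both panels, and CON 19 lies below the line that the other calves form.

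Among themselves, the 5 genes had Pearson correlations of log2 CPM between 0.904 and 0.995 (COX2 with COX3) over the 14 calves. Without CON 31 and CON 25, the calves farthest from the median, they lay between 0.594 and 0.95. The points share libraries and scaling, so these are descriptions. Of 13306 genes compared, ENSBTAG00000043584, with no paired name, was the most like the summed level (r = 0.986, Spearman's rho = 0.947), with r = 0.891 without the 2 farthest calves. ND4, a membrane subunit of complex I, followed with r = 0.986 and rho = 0.982, and r = 0.893 without those calves. ND1, the subunit next to the ubiquinone site of complex I, had r = 0.972 and rho = 0.952, and 0.762 without them. The third of the first 5 genes, annotated as a mitochondrial rRNA or tRNA gene, and the fifth also had no paired name. For the fifth, ENSBTAG00000018999, r was 0.971 and rho 0.851, with r = 0.802 without the 2 farthest calves. Its log2 fold change between the groups was -0.39 (SE 0.26).

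Of the nuclear genes for these complexes, none of the 43 listed subunits of complexes III, IV and V was paired with an identifier, and they were not analysed here. Of 33 listed assembly factors, COX14 and COX17 were paired, and of 34 genes of mitochondrial transcription, RNA processing and replication, PNPT1 was. All 3 names came from the study's list of differential genes, so their group values are descriptions too. Nothing can be read from how often each passed the threshold on dropping single calves, since the same contrast chose the genes. COX17 is a copper chaperone of the intermembrane space that serves cytochrome c oxidase, and COX14 acts in the early assembly of COX1. PNPT1 encodes polynucleotide phosphorylase, which takes part in RNA import and in the decay of mitochondrial RNA.

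COX17 was measured at 35.6 (VTM 28), 53.8 (median) and 80.2 CPM (VTM 34) in VTM calves. In CON calves it was at 42.4 (CON 37), 73.8 (median) and 139 CPM (CON 31), with 112 CPM in CON 25. As for the mitochondrial genes, CON 31 and CON 25 lay above all VTM calves and the other CON calves did not. The log2 fold change was -0.77 (SE 0.35), and on dropping single calves it passed the threshold 6 of 12 times. It did not pass without CON 31 (-0.41, SE 0.29), CON 25 (-0.65), VTM 4 (-0.72), VTM 16 (-0.79), VTM 28 (-0.66) or VTM 40 (-0.72).

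COX14 was at 37 (VTM 28), 43.2 (median) and 60.3 CPM (VTM 16) in VTM calves, and at 48.4 (CON 37), 60.2 (median) and 85.7 CPM (CON 25) in CON calves. CON 31 had 84.0 CPM and CON 7 had 67.3 CPM, so 3 CON calves lay above the VTM range. The log2 fold change was -0.62 (SE 0.27), and on dropping single calves it passed 7 of 12 times. It did not pass without CON 31 (-0.39, SE 0.24), CON 25 (-0.49), VTM 4 (-0.56), VTM 28 (-0.56) or VTM 40 (-0.57).

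PNPT1 had the opposite order, with 27.3 (VTM 22), 30.8 (median) and 45.4 CPM (VTM 40) in VTM calves. In CON calves it was at 12.8 (CON 25), 23.3 (median) and 31.9 CPM (CON 1), and the next lowest was CON 31 at 14.2 CPM. All CON calves but CON 1 lay below the VTM range, and the calves with the highest mitochondrial shares had the lowest PNPT1 levels. The log2 fold change was 0.55 (SE 0.18), and on dropping single calves it passed 10 of 12 times, at 0.53 (SE 0.18) without CON 31. PNPT1 did not pass without CON 25 (0.47, SE 0.17) or VTM 40 (0.43, SE 0.16), where it was under the fold change limit. As for COX17 and COX14, this count is a description only, since the same contrast chose the gene. Over all 14 calves, COX17, COX14 and PNPT1 had log2 fold changes of -0.61, -0.50 and 0.45 and did not pass the threshold. CON 19 lay at 25.9 CPM for COX17 and 29.0 CPM for COX14, below every other calf, and at 33.7 CPM for PNPT1.

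**Figure D5:**
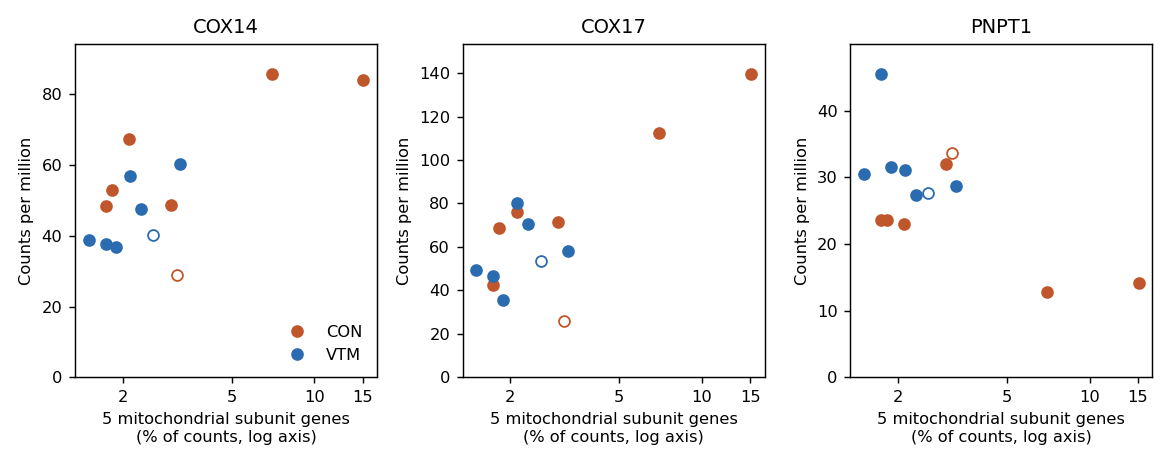
The CPM of COX14, COX17 and PNPT1 in each calf is plotted against the summed share of the 5 mitochondrial genes in percent on a log axis, with VTM and CON calves in separate colours and left-out calves as open circles. CON 31 and CON 25, at the right, have the 2 highest COX17 levels (139 and 112 CPM) and the 2 lowest PNPT1 levels (14.2 and 12.8 CPM).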

How the data were processed

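Strand-specific polyA libraries were made from the livers of 14 calves. The authors deposited raw counts per gene from STAR 2.7.5 on ARS-UCD1.2 with the Ensembl release 109 annotation, without normalization. Groups came from the sample labels, and calves were numbered as in the titles. Gene names were paired with 688 identifiers through the study's lists of 630 differential genes and 58 regulatory transcription factors. Shares are percent of all counts of a library.

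Fits used edgeR 4.0.16 in R 4.3.3 (quasi-likelihood test after filterByExpr and TMM, with diet as the only term) on the 12 calves kept by the study, and DESeq2 1.42.0 as an alternative. The lowest adjusted p over all genes was 0.791 by edgeR and 0.0844 by DESeq2. For edgeR, the SE of a log2 fold change was its absolute value over the square root of the test's F statistic. For DESeq2 it was the SE that the tool reports, so the 2 are not the same quantity. Log2 CPM used a prior count of 2. Shares, ratios and correlations came from Python 3.11.15 (pandas 2.3.3, numpy 2.4.6, scipy 1.17.1). The fitting code was tested on simulated counts.

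The genes and lists were chosen with earlier results of these data known. Named genes were the members, the 5 genes most correlated with their summed CPM (unnamed ones by identifier, at most 2) and paired genes of the nuclear lists. Those lists were matched for 3 of 110 genes, so no count over them was made. No sequences or gene lengths were used, since the reference given is of another assembly. Over 2 libraries the highest correlation of log2(count + 1) was 0.987, so none was counted as a duplicate. Alternatives were other scalings and filters, all 14 calves, and leaving out each calf.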

Additional observations from a re-analysis of the deposited data

Results flagged for a closer look

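A single calf far from the rest of its group was sought in 36 groups of 6 values. In 2 of them a calf stood past Dixon's critical value, and chance gives about 1 in 20. COX2 took 1.80% of counts in CON 31, while the other 5 CON calves of the comparison lay between 0.181% and 0.718%. CON 31 also had the highest shares of CYTB, COX1, COX3 and ATP8, without passing the critical value for them. PNPT1 was at 45.4 CPM in VTM 40, the library with the fewest detected genes (12212), while the other 5 VTM calves lay between 27.3 and 31.5 CPM.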

How the results depend on the processing

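The count of genes past the threshold was 494 with the 12 calves, 1003 with no filter beyond at least 1 count and 275 with all 14 calves. Leaving out 1 calf at a time gave 286 (without CON 31) to 1039 genes (without CON 37), with 305 without CON 25 and 743 without CON 1. DESeq2 gave 630, RLE size factors 499, a minimum of 10 counts in every library 452, and taking out the mitochondrial genes 465. The difference in summed share, VTM minus CON, ranged from -3.67 (without CON 37) to -0.99 percentage points (without CON 31), and was -4.19 points with TMM-scaled library sizes. Leaving out 1 calf moved the log2 ratio differences between -0.058 and 0.058 for COX1 to CYTB, -0.090 and 0.020 for COX2 to COX1, -0.155 and -0.047 for COX3 to COX1, and -0.49 and -0.12 for ATP8 to COX1. The log2 fold changes of the 5 genes and of COX14, COX17 and PNPT1 kept their direction in every alternative in which they were fitted. The ratio differences of COX1 to CYTB and COX2 to COX1 changed sign in some alternatives. Over all 14 calves the difference went from -0.021 to 0.046 for complex IV to CYTB, and from 0.11 to -0.25 for ND6 to CYTB. No paired analysis was possible because the calf numbers in the labels differ between VTM and CON. The planned counts over nuclear subunits, assembly factors and mitochondrial expression genes were not run for want of paired names. Depth limits ATP8 alone among the 5 genes.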
